A study of Mus musculus with 24 samples.

Results

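The mRNAs of 7 genes were followed in mouse calf muscle: the receptors for the constant (Fc) part of IgG, namely Fcgr1, Fcgr2b, Fcgr3, Fcgr4 and Fcgrt, the signalling subunit Fcer1g and the tyrosine kinase Syk. They were chosen by name for their part in Fc receptor signalling, and are 7 of the 54532 genes in the count files. All 7 passed the filter on low counts in every comparison, Fcgr4 only through the pain groups; the other 6 had at least 10 counts in every sample. The 24 samples are left gastrocnemius muscle of wild-type C57/BL6 mice of each sex, in 6 groups of 4, with a labelled time of 24 h and no age given. Controls were free of pain and had 2 injections of saline at pH 7.2 ± 0.1 into that muscle, 20 µl each, spaced by 5 days. Sedentary pain mice had injections of pH 5.0 ± 0.1 in that volume and spacing, with 6 min of electrically driven contraction right before the second injection. Active pain mice had a running wheel for 8 weeks and then went through the pain procedure. Every pain group therefore had acid and contraction together, and no group ran without pain, so the parts of the procedure cannot be told apart. Total counts were between 17612139 and 34039699 per sample. P-values measure the spread between these samples, since the labels do not state that each is a separate animal.

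Fc gamma receptors let immune cells bind antibody that has coated a target. Fcgr1, Fcgr3 and Fcgr4 activate the cell through the shared gamma chain encoded by Fcer1g, whose cytoplasmic tail carries an immunoreceptor tyrosine-based activation motif (ITAM). Src family kinases phosphorylate the ITAM, and Syk then docks on it and passes the signal on. Fcgr2b is the inhibitory receptor of the family and opposes that signal through the lipid phosphatase SHIP1, the product of Inpp5d. Fcgrt encodes the neonatal Fc receptor FcRn, which pairs with beta-2 microglobulin (B2m) and protects IgG and albumin from breakdown; it does not signal through Fcer1g. In muscle the activating receptors are known mainly from macrophages and other leukocytes among the fibres, whereas FcRn is also made by endothelial cells.

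Of the 7 genes, 4 lie together. In GRCm38 (GENCODE M21), Fcgr2b, Fcgr4, Fcgr3 and Fcer1g share a stretch of 275.7 kb on chromosome 1, from 170958617 to 171234365. Fcgr1 (ENSMUSG00000015947) lies at chr3:96282909-96293969 on the minus strand, Fcgrt at chr7:45092990-45103851 on the minus strand, and Syk at chr13:52583173-52648792 on the plus strand. All 7 are annotated as protein coding. The Fcgr genes of this stretch are related in sequence, so sharing of reads was examined: 2.54% of the 100-base stretches in Fcgr3 transcripts occur in another gene (Fcgr2b), and 1.4% of those in Fcgr2b transcripts do (Fcgr3 among others), while none did in the other 5. Fcgr2b exons overlap those of Gm38204, on the opposite strand, over 155 bases or 2.68% of their length. Whether counting used strand is not given in the sources used here.

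The 250 bases before the start site (RefSeq, GRCm38.p6) are shown for the 3 activating receptors, which share a motif, and for Fcer1g, their common subunit. Both motifs were picked after the sequences had been seen. Capitals mark GAGGAA on either strand (TTCCTC on the strand printed), letters found in many binding sites of the myeloid factor PU.1, and TTCNNNGAA, the letters of the interferon-gamma-activated site bound by STAT factors. The motifs do not overlap in these windows.
Fcgr1, chr3:96293970-96294219, minus strand: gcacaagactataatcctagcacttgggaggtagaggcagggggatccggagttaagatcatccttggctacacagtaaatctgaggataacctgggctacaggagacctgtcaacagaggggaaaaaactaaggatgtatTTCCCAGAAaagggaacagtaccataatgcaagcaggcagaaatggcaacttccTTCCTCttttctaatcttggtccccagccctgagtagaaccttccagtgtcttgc
Fcgr3, chr1:171059395-171059644, minus strand: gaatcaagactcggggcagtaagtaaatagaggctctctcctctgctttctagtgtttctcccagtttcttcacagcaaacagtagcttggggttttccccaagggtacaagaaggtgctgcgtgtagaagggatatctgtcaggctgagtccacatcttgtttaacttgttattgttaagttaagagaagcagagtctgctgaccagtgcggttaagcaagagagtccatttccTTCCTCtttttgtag
Fcgr4, chr1:171018676-171018925, plus strand: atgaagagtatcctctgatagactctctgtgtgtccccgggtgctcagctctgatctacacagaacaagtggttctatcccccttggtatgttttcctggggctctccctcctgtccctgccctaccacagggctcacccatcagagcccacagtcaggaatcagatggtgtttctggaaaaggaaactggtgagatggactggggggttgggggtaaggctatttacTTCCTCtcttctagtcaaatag
Fcer1g, chr1:171234350-171234599, minus strand: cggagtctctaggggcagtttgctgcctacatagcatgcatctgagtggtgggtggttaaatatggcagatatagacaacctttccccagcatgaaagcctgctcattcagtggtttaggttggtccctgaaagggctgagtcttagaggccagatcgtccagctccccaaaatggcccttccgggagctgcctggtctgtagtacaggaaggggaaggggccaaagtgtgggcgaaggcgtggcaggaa
GAGGAA lay 55 to 50 bases before the start of Fcgr1, 15 to 10 before that of Fcgr3 and 22 to 17 before that of Fcgr4. It was also found before the second of the start sites of Syk, and in no window of Fcgr2b, Fcer1g or Fcgrt. The RefSeq windows of Fcgr2b and Fcgr3 lie within the longer GENCODE spans of these genes, and that of Fcgr2b, not printed, overlaps annotated untranslated exons, so other start sites were not searched there. Of 32851 promoter windows of this length, 23.3% hold GAGGAA on some strand, and 7.02% hold TTCNNNGAA, which among the 7 genes was found in Fcgr1 alone, 109 to 101 bases before its start. These matches are letters in a window and say nothing of what bound there.

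In control muscle the transcripts of the Fc gamma receptors were scarce and that of Fcgrt was not. Levels are given as CPM, counts scaled to the TMM-adjusted library total, and between genes as CPM per kilobase of exon (CPM per kb). Fcgrt stood first in controls of each sex, at 26.4 ± 8.68 CPM per kb in females (SD, n = 4) and 19.4 ± 3.20 in males (SD, n = 4). Fcer1g followed in females at 6.39 ± 2.39 CPM per kb, and Fcgr3 at 2.30 ± 1.01, and the sample ranges of these 3 genes did not overlap. Fcgr2b, Fcgr1, Fcgr4 and Syk were all under 0.99 CPM per kb in every female control, and each overlapped the next in that order. In male controls the ranges of Fcer1g and Fcgr3 overlapped, and Fcgr4 was lowest, at 0.0860 ± 0.0293 CPM per kb (SD, n = 4). Between the sexes, none of the 7 genes differed in controls (edgeR quasi-likelihood test, Benjamini-Hochberg adjusted p from 0.429 to 0.903), where 2.83% of 15103 genes tested did. At an unadjusted p under 0.05 it was 0 of the 7, beside 14.9% of all genes.

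After the pain procedure in sedentary females, the receptors that bind immune complexes, their gamma chain and Syk all rose, and Fcgrt did not pass the test. Of the 7 genes, 6 were higher at an adjusted p under 0.05 in edgeR's quasi-likelihood test, where 19.6% of the 14511 genes tested were higher and 33.5% changed in either direction. Over the 7 genes the median log2 fold change was 3.72, beside -0.02 over all genes tested. The control and sedentary pain samples did not overlap for the same 6 genes, which held for 15.3% of all genes in that direction. In bulk muscle, more cells of a type and more RNA per cell cannot be told apart.

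**Figure D1:**
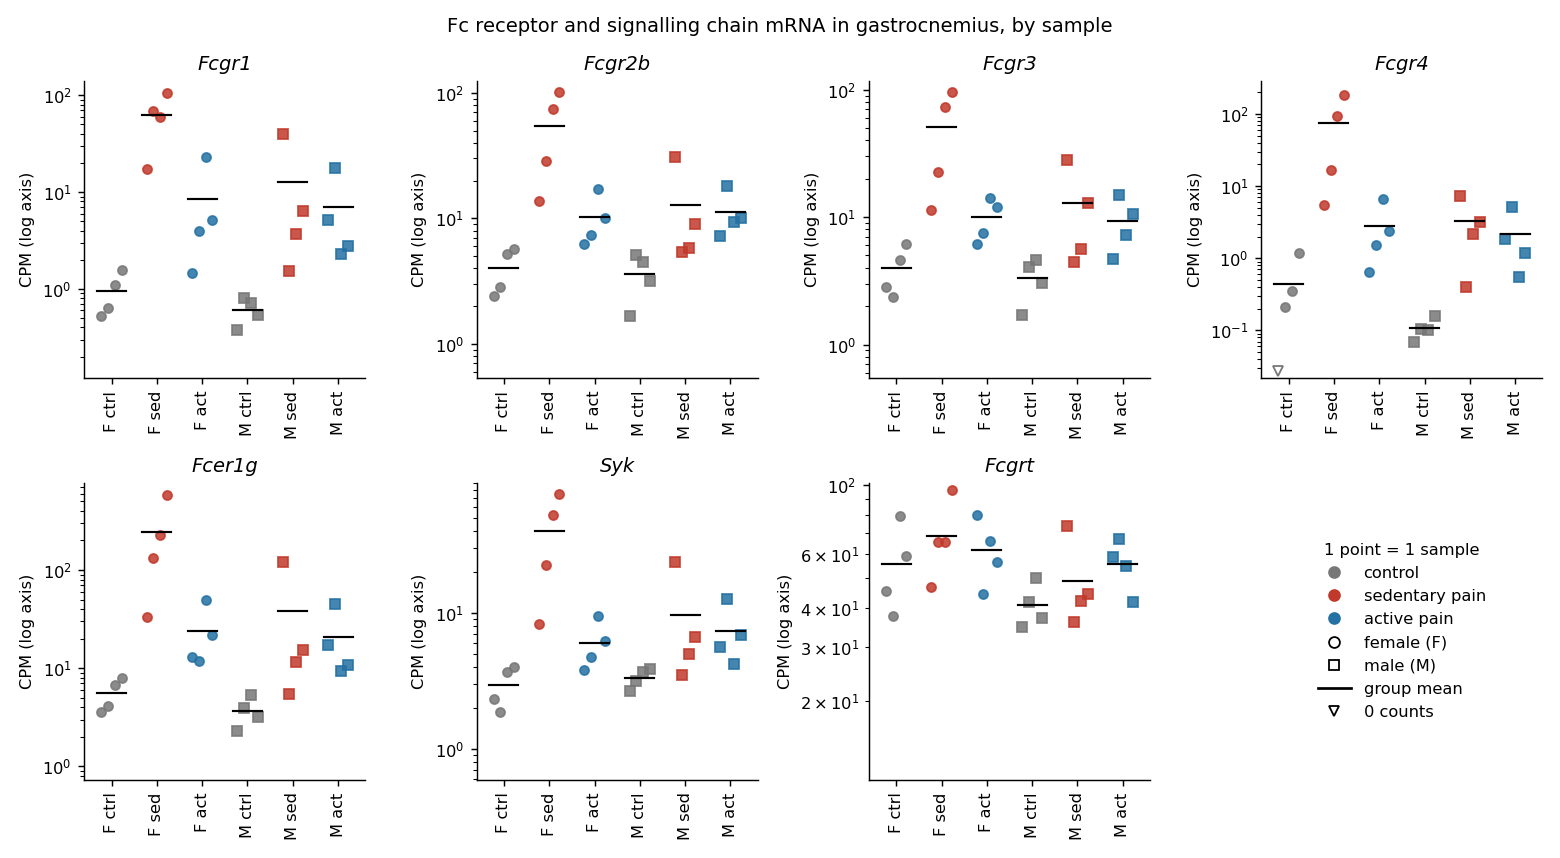
Level of each gene in CPM (log axis) in each of the 24 samples, by sex (F, female; M, male) and group (ctrl, control; sed, sedentary pain; act, active pain); circles are females, squares males, and black lines group means. The 4 female sedentary pain samples lie above the 4 female controls in every panel except Fcgrt, and the open triangle at the lower edge is the female control with 0 counts of Fcgr4.

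Fcgr4 is an activating receptor for mouse IgG2 subclasses and had few counts in controls. Female controls 1 to 4 had 0, 0.210, 0.352 and 1.19 CPM, which are 0, 5, 9 and 39 counts (the 0 allows up to 3 counts, or 0.130 CPM). Sedentary pain females had 5.45, 16.9, 93.8 and 184.7 CPM. The lowest pain sample thus stood above the highest control, and the pain samples themselves spread widely. The log2 fold change was 7.28 ± 1.31 (SE, n = 4 against 4), with an edgeR adjusted p of 0.00367, and its size rests on few control counts. Fcgr1, the high-affinity receptor, had 0.520, 0.631, 1.09 and 1.56 CPM in female controls. In sedentary pain it had 17.4, 68.6, 59.99 and 105.8 CPM. It rose by a log2 fold change of 5.99 ± 0.90 (edgeR adjusted p = 0.0026), and its groups lay well apart.

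Fcgr3, the low-affinity activating receptor, and Fcgr2b, the inhibitory one, moved by similar amounts. Fcgr3 had 2.82, 2.36, 4.57 and 6.21 CPM in female controls and 11.5, 22.6, 73.2 and 95.7 CPM in sedentary pain. Fcgr2b had 2.43, 2.82, 5.20 and 5.72 CPM in the same controls and 13.8, 28.8, 74.1 and 101.1 CPM in sedentary pain. For each gene, replicates 1 and 2 of the pain group were lower than replicates 3 and 4, and all 4 exceeded every control. The log2 fold changes were 3.64 ± 0.63 for Fcgr3 (edgeR adjusted p = 0.00319) and 3.72 ± 0.61 for Fcgr2b (edgeR adjusted p = 0.00285).

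The shared chain and the kinase rose as well. Fcer1g had 3.60, 4.08, 6.76 and 7.92 CPM in female controls and 33.2, 131.8, 227.2 and 586.9 CPM in sedentary pain. It became the most abundant of the 7 transcripts per length, at 280.1 ± 276.2 CPM per kb, although its range overlapped that of Fcgr4, at 59.9 ± 66.0 CPM per kb (SD, n = 4). The log2 fold change of Fcer1g was 5.42 ± 0.84 (edgeR adjusted p = 0.0026). Syk had 2.34, 1.85, 3.67 and 4.005 CPM in female controls and 8.36, 22.7, 52.8 and 75.5 CPM in sedentary pain, a log2 fold change of 3.72 ± 0.60 (edgeR adjusted p = 0.00285). Fcgrt had 45.6, 37.8, 79.5 and 59.2 CPM in controls and 46.8, 65.6, 65.4 and 96.9 CPM in sedentary pain. Per length, the order in that group was Fcer1g, Fcgr4, Fcgrt, Fcgr3, Fcgr1, Fcgr2b and Syk, with each gene overlapping the next, whereas Fcgrt had led in controls. The Fcgrt groups overlapped, and its log2 difference was 0.29 ± 0.27 (edgeR adjusted p = 0.41), and -0.16 with a GC and length correction, under which the median of all genes was -0.14.

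All 12 fits that left out a female sample called the same number, 6 of the 7. With replicates 1 and 2 alone, 5 passed and Syk had an edgeR adjusted p of 0.0516. The log2 fold changes were then 6.20 for Fcgr1, 6.63 for Fcgr4, 4.41 for Fcer1g, 3.01 for Fcgr2b, 2.87 for Syk and 2.70 for Fcgr3. With replicates 3 and 4 alone, 6 passed. These pairs differ in a number in the library names, which the labels do not explain. With 1 surrogate variable as a covariate only Fcer1g passed (edgeR adjusted p = 0.0327, log2 fold change 1.96). The log2 fold changes of the others shrank to 3.69 for Fcgr1, 2.64 for Fcgr4, 1.26 for Fcgr2b, 1.13 for Syk and 1.04 for Fcgr3, and 61 of all genes passed.

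In females that had run before the pain procedure, the same 6 transcripts were lower than in sedentary pain. The edgeR test called 6 of the 7 genes lower, where 9.41% of the 14511 genes tested were lower and 11.9% changed in either direction. Their median log2 difference was -2.69, beside 0.01 over all genes tested. Fcgr4 had 0.637, 1.52, 6.66 and 2.37 CPM in active pain replicates 1 to 4, and its log2 difference from sedentary pain was -4.72 ± 1.12 (edgeR adjusted p = 0.0328). Fcgr1 had 1.47, 3.92, 23.2 and 5.17 CPM, with a log2 difference of -2.88 ± 0.76 (edgeR adjusted p = 0.0356). In both genes replicate 3 of active pain lay above replicate 1 of sedentary pain, so the groups overlapped.

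The other 4 called genes behaved likewise. Fcgr2b had 6.22, 7.35, 17.2 and 10.1 CPM in active pain and a log2 difference of -2.39 ± 0.57 from sedentary pain. Fcgr3 had 6.17, 7.45, 14.1 and 12.01 CPM and a log2 difference of -2.33 ± 0.59. Fcer1g had 13.0, 11.9, 49.0 and 21.6 CPM and a log2 difference of -3.34 ± 0.75. Each of these groups again overlapped with sedentary pain, through the lowest sedentary sample, replicate 1. Syk had 3.77, 4.73, 9.48 and 6.23 CPM and a log2 difference of -2.70 ± 0.57. The edgeR adjusted p-values of these 4 genes were between 0.0328 and 0.0333. Fcgrt had 80.1, 44.5, 65.9 and 56.3 CPM, and its log2 difference of -0.14 ± 0.27 did not pass (edgeR adjusted p = 0.732). None of the 7 genes had groups without overlap in this comparison, which held for 6.37% of all genes in the lower direction.

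This call depended on single samples. It went from 6 genes to 0 when any of female active pain replicate 1, 2 or 4 or female sedentary pain replicate 3 or 4 was left out. It was also 0 with no filter on low counts, with 1 surrogate variable, with only the compared groups in the fit, and with replicates 1 and 2 alone, and 6 with replicates 3 and 4 alone. With no filter or only the compared groups the log2 differences stayed near those above (-3.29 and -3.34 for Fcer1g). Without female active pain replicate 1, 2 or 4, that of Fcer1g was -3.17, -3.15 and -3.32. Without female sedentary pain replicate 3 it was -3.40. Without female sedentary pain replicate 4 that of Fcer1g was -2.46 and that of Fcgr4 -3.79. With 1 surrogate variable they shrank to between -1.13 for Fcgr1 and -0.07 for Fcgr3.

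Against controls, females with active pain had higher means for all 7 genes, and 0 of the 7 passed the edgeR test, as did 0% of the 14511 genes. At an unadjusted p under 0.05 there were 4 (Fcgr1, Fcgr2b, Fcgr3 and Fcer1g), beside 7.03% of all genes, and DESeq2 called 1 of the 7 and 133 of all genes at its adjusted p. The log2 differences were between 0.15 ± 0.27 for Fcgrt and 3.11 ± 0.82 for Fcgr1, with edgeR adjusted p from 0.565 to 0.89. Fcgr2b and Fcer1g had every active pain sample above every control, which held for 3.6% of all genes.

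**Figure D2:**
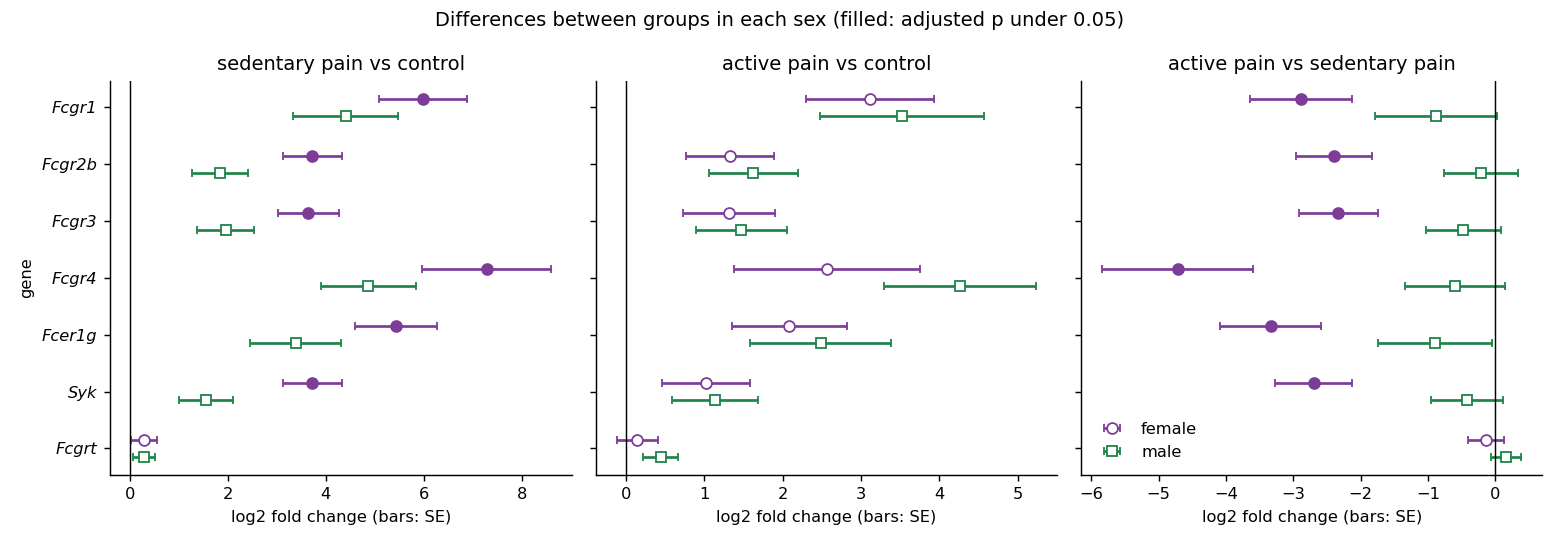
Log2 fold change of each gene in the 3 comparisons within females (circles) and males (squares), with the SE as bars; filled symbols have an edgeR adjusted p under 0.05. Only female sedentary pain against control and female active against sedentary pain hold filled symbols, 6 in each.

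In males the 6 genes were higher after the pain procedure on average, yet none passed the test. In sedentary pain against control, 0 of the 7 were called by edgeR, as were 0% of the 14404 genes tested, while 6 of the 7 had an unadjusted p under 0.05, beside 8.84% of all genes. DESeq2 called 5 of the 7 (all but Syk and Fcgrt) and 280 of all genes. The median log2 difference was 1.95, beside -0.01 over all genes tested. Male sedentary pain replicate 1 stood far above the others. Fcer1g had 2.29, 3.92, 5.36 and 3.21 CPM in male controls and 120.0, 5.42, 11.7 and 15.3 CPM in sedentary pain. Fcgr1 had 0.375, 0.804, 0.713 and 0.535 CPM in male controls and 39.6, 1.54, 3.67 and 6.33 CPM in sedentary pain. For both genes the lowest pain sample still lay above the highest control, by little in the case of Fcer1g.

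Fcgr4 had 0.0682, 0.105, 0.102 and 0.157 CPM in male controls, which are 2, 3, 3 and 5 counts, and 7.23, 0.402, 2.20 and 3.20 CPM in sedentary pain. Fcgr2b had 1.67, 5.11, 4.51 and 3.18 CPM in male controls and 30.7, 5.42, 5.79 and 9.06 CPM in sedentary pain. These 2 genes, with Fcgr1 and Fcer1g, make 4 of the 7 whose male sedentary pain and control samples did not overlap, beside 3.95% of all genes. Fcgr3 had 1.71, 4.06, 4.61 and 3.05 CPM in controls and 28.3, 4.42, 5.66 and 12.8 CPM in sedentary pain. Syk had 2.66, 3.15, 3.66 and 3.87 CPM in controls and 23.6, 3.48, 4.98 and 6.70 CPM in sedentary pain. In Fcgr3 and Syk the second sedentary pain sample fell within the control range. Without male sedentary pain replicate 1, the log2 difference went from 3.38 to 1.56 for Fcer1g, from 4.41 to 2.68 for Fcgr1, from 1.83 to 0.92 for Fcgr2b, from 1.55 to 0.61 for Syk and from 4.86 to 4.11 for Fcgr4. That of Fcgr3 went from 1.95 to 1.21 and that of Fcgrt from 0.28 to 0.02.

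Males with active pain passed the test against neither other group. Against control, 0 of the 7 were called by edgeR (0% of 14404 genes), 5 had an unadjusted p under 0.05 (7.25% of all genes), and DESeq2 called Fcgr1 and Fcgr4 among 123 of all genes. Active pain replicates 1 to 4 had 17.4, 45.4, 9.41 and 10.7 CPM of Fcer1g, 5.17, 17.9, 2.29 and 2.77 CPM of Fcgr1 and 1.85, 5.16, 0.547 and 1.19 CPM of Fcgr4. Replicate 2 was the highest for all 7 genes. All genes except Fcgrt had each active pain sample above each control, 6 of 7 beside 6.34% of all genes, with log2 differences from 1.14 ± 0.55 for Syk to 4.27 ± 0.97 for Fcgr4. Active against sedentary pain gave log2 differences between -0.90 ± 0.85 (Fcer1g) and 0.17 ± 0.22 (Fcgrt). There, 0 of the 7 had an adjusted or unadjusted p under 0.05, beside 0% and 0.84% of all genes, and DESeq2 called 0. Without male sedentary pain replicate 1, the sign turned for all 6 genes other than Fcgrt, with log2 differences from 0.16 (Fcgr4) to 0.92 (Fcer1g) and no call. Without male sedentary pain replicate 1 and male active pain replicate 2 together, a fit added after the data were seen, Fcgr2b, Fcer1g and Syk had log2 differences of 0.39, 0.21 and 0.14, the opposite sign to the fit on all samples.

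Whether the sexes differed was tested directly, as the difference between the male and the female log2 fold change. None of the 7 genes passed for any of the 3 comparisons, and 0% of the 15103 genes did, with edgeR and an adjusted p under 0.05. For sedentary pain against control, the male change was smaller by 2.20 ± 0.82 for Syk (-2.20, edgeR adjusted p = 0.447) and by 1.93 ± 0.83 for Fcgr2b (-1.93, edgeR adjusted p = 0.479), the 2 genes with an unadjusted p under 0.05, beside 9.57% of all genes. For active against sedentary pain, 5 of the 7 had an unadjusted p under 0.05, beside 14.7% of all genes. The difference there was 4.17 ± 1.35 for Fcgr4 (edgeR adjusted p = 0.228) and 2.32 ± 0.81 for Syk (edgeR adjusted p = 0.242). For active pain against control it was 0 of the 7, beside 2.03% of all genes.

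The tests between the sexes depended on male sedentary pain replicate 1. Without that sample, 6 of the 7 genes passed for active against sedentary pain, with differences of 4.91 for Fcgr4, 4.29 for Fcer1g and 3.25 for Syk and an edgeR adjusted p from 0.0228 to 0.0372, and 2174 of all genes passed; for the other 2 sex differences 0 of all genes did. Without female sedentary pain replicate 1, Fcgr4 and Syk passed (edgeR adjusted p = 0.0447 and 0.0466), and 622 of all genes did. Without male sedentary pain replicate 1 and male active pain replicate 2 together, 3 of the 7 passed for sedentary pain against control (Fcgr2b, Fcer1g and Syk) and 591 of all genes did, while 0 of all genes passed for active against sedentary pain. With replicates 3 and 4 alone, 4 of the 7 passed for each of these comparisons, as did 1349 of all genes for sedentary pain against control and 1222 for active against sedentary pain.

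The make-up of the Fc gamma receptor mRNA was described by shares, without a test. As a share of the summed CPM per kb of Fcgr1, Fcgr2b, Fcgr3 and Fcgr4, Fcgr3 took 63.3% ± 6.22 in female controls and 67.0% ± 2.23 in male controls (SD, n = 4), and was the largest share in each of these 8 samples. In female sedentary pain, Fcgr3 took 26.0% ± 5.36, Fcgr1 27.5% ± 14.9 and Fcgr4 37.5% ± 17.8 (SD, n = 4). Fcgr1 held the largest share in replicates 1 and 2 of that group, at 33.6% and 45.8%. Fcgr4 held it in replicates 3 and 4, at 48.9% and 56.5%. Fcgr2b ranged from 16.2% to 21.6% in female controls and from 6.71% to 11.9% in female sedentary pain. The other pain groups lay between these: Fcgr3 took 50.3% ± 12.9 in active females, and in males 48.3% ± 8.85 in the sedentary and 48.6% ± 13.4 in the active pain group (SD, n = 4). Fcgr1 took 19.8% ± 10.8 in active females, and in males 21.5% ± 9.85 and 20.2% ± 9.90. The summed level of the 4 receptors was 2.24 to 6.11 CPM per kb in female controls, 20.1 to 260.5 in female sedentary pain and 5.71 to 25.4 in female active pain. In males it was 1.47 to 3.79 CPM per kb in controls and 4.396 to 42.6 in sedentary pain, where the samples did not overlap, while female active pain overlapped with female controls.

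**Figure D3:**
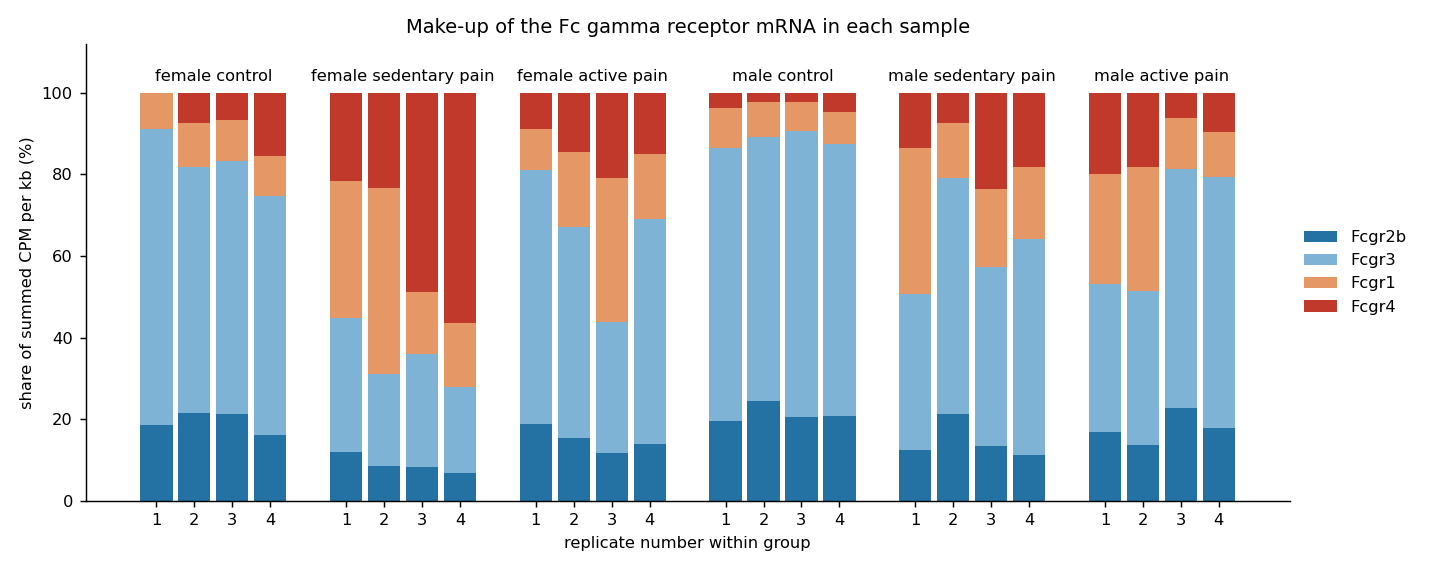
Share (%) of Fcgr2b, Fcgr3, Fcgr1 and Fcgr4 in their summed CPM per kb, 1 bar per sample, with replicate numbers on the horizontal axis and the groups named above. The dark and light blue parts (Fcgr2b and Fcgr3) fill most of each control bar, and the other parts (Fcgr1 and Fcgr4) fill most of each female sedentary pain bar.

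Each ratio between genes within a sample was tested by an exact two-sided permutation test over the 70 arrangements of 4 against 4, whose smallest p is 0.0286. With 30 such tests, none passed after Benjamini-Hochberg adjustment (smallest adjusted p = 0.0779). Passing would have needed most of the 30 tests to reach the smallest p together. Failure to pass therefore says little about any single ratio. The ratio of Fcgr1 to Fcgr2b, an activating to the inhibitory receptor, was higher without overlap in sedentary pain than in control, by 2.33 on the log2 scale in females and 1.69 in males (exact p = 0.0286 for each). Per length, its geometric mean went from 0.561 in female controls to 2.82, and from 0.447 in male controls to 1.44. The ratio of Fcgr4 to Fcgr2b differed by 3.18 on the log2 scale between female sedentary pain and control, and by -1.95 between female active and sedentary pain, each without overlap (exact p = 0.0286). With a pseudocount of 1 CPM in place of 0.1, the first of these became 1.63, and the difference between male active pain and control went from 1.43 to -0.07. The ratio of Fcgr1 to Fcgr2b in females became 1.67 with that pseudocount.

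The ratio of Fcgr3 to Fcgr2b stayed within a narrow range: its differences were between -0.31 and 0.17 on the log2 scale in the 6 comparisons, all with overlapping samples, and its geometric mean per length was between 2.71 and 3.37 in the 6 groups. Syk was lower relative to Fcer1g in the pain groups. In females the log2 ratio of Syk to Fcer1g differed from control by -1.51 after sedentary pain and by -0.92 after active pain. In males the same differences were -1.25 and -1.21. None of these 4 had overlapping samples (exact p = 0.0286, adjusted p = 0.0779 for each). Fcgrt was likewise lower relative to its partner chain B2m. Their log2 ratio differed from control by -1.89 in sedentary females, without overlap (exact p = 0.0286), and by -0.44 in active females, where samples overlapped (exact p = 0.229). In males the differences were -0.82 for the sedentary and -0.70 for the active pain group, both without overlap (exact p = 0.0286).

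Across the 24 samples the 6 genes other than Fcgrt moved together, which the differences between groups, and shared library depth and scaling, all enter. Pearson's r of log2 CPM was highest for Fcgr2b with Fcgr3, at 0.986 over 24 samples, and 0.966 for deviations from the group means. It was lowest among the 6 for Fcgr1 with Fcgr3, at 0.93. Fcgrt had an r of 0.62 to 0.723 with the others. Among 11151 genes searched, the most alike to Fcer1g were Coro1a (0.997), Laptm5 (0.996) and Cotl1 (0.995). Those most like Fcgr1 were Ccr2, a chemokine receptor, Cd84 and Ms4a6d (0.986 to 0.985), and those alike to Fcgr4 included Ctss and Clec4a1 (0.986 and 0.984). Fcgr2b was followed by Lcp1, Fcgr3 and Pirb (0.987 to 0.985), Fcgr3 by Cd48, Fcgr2b and Tlr2 (0.986 to 0.982), and Syk by Ccdc88b, Nfam1 and Tlr2 (0.988 to 0.982). Fcgrt stood with another set, Igfbp4, Hmgn3 and S100a13 (0.933 to 0.923).

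In both sedentary pain groups the 7 genes shared their highest and lowest sample. Female sedentary pain replicate 4 was the highest and replicate 1 the lowest of its group for all 7 genes, and male sedentary pain replicate 1 was the highest and replicate 2 the lowest for all 7. Macrophage and monocyte markers had their highest and lowest sums in the same samples of these groups, and markers of other leukocytes did not in all cases. The summed CPM of 9 macrophage markers was 101.9 to 223.7 in female controls, 457.1 to 5429 in sedentary pain and 260.2 to 452.0 in active pain. In males it was 68.3 to 152.7, 146.5 to 715.0 and 236.5 to 484.6. In female sedentary pain against control, 8 of the 9 macrophage and 5 of the 5 monocyte markers were higher by edgeR, as were 5 of the 5 neutrophil markers tested (of 7). Neutrophil markers summed to 0.898 to 3.61 CPM in female controls and to 21.03, 252.1, 38.8 and 57.2 CPM in female sedentary pain replicates 1 to 4, so replicate 2 was highest. They summed to 298.8 CPM in male sedentary pain replicate 1 against 2.20 to 2.69 CPM in the other 3 of its group. Ly6g and Mpo, defining neutrophil markers, were at 0 in all male controls. Mast cells, which carry Fcer1g with the IgE receptor, had 1 of 6 markers higher in female sedentary pain, where 19.6% of all genes were, with a median log2 difference of 0.58. Their summed CPM was 15.9 to 38.5 in female controls and 13.9, 69.2, 58.5 and 45.6 in sedentary pain, so 3 of 4 samples were above the controls. The IgE receptor gene Fcer1a had 28 counts or fewer in each sample.

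T cell markers summed to 0.0421 to 1.05 CPM in female controls and to 1.74, 1.81, 24.2 and 37.9 CPM in sedentary pain. NK cell markers, of cells that also carry Fcgr3, summed to 0.210 to 1.93 CPM in female controls and to 2.04, 3.85, 38.0 and 74.7 CPM in sedentary pain, so both lists were high in replicates 3 and 4. Of 5 dendritic cell markers 3 were tested and 2 higher there, of 4 T cell markers 1 was tested and higher, of 4 B cell markers likewise 1, and of 4 NK cell markers 2. The rest of these lists did not have enough counts in as many samples as a group holds, which the filter asks for. A gene low in controls could enter the test only through the group where it was high. Of the 3 plasma cell markers 0 were higher. The 6 muscle fibre markers, which define the labelled tissue, summed to 117100 to 165700 CPM in female controls and 80260 to 157000 in sedentary pain. Endothelial markers, of cells that make FcRn, were lower for 2 of 4 genes in female sedentary pain, and adipocyte markers for 3 of 4, where 2020 of the 14511 genes tested were lower. The mitochondrial share of counts was 8.59% to 11.02% in female controls, 2.75% to 8.22% in female sedentary pain, 6.67% to 11.4% in female active pain, and 4.53% in male sedentary pain replicate 1 against 10.4% to 11.3% in the rest of its group. In male active pain it was 5.96% in replicate 2, the highest for all 7 genes, and 8.14% to 12.6% in the others. The part of cell numbers, tissue make-up and RNA quality in the differences above was not tested.

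Around the 7 genes, a list of 106 genes of the same pathway was read by role, and 105 of them were found in the files. In female sedentary pain against control, 63 of the 80 tested were higher and 2 lower by edgeR, with a median log2 fold change of 3.51, beside 19.6% higher and a median of -0.02 over all genes. The pathway list was drawn up with earlier results of these data known. Any gene of it that was low in controls could enter the test only through the group where it was high. Its counts are therefore descriptions and not independent support. Immunoglobulins are the ligands of the receptors. Of the immunoglobulin constant genes, 5 of 13 were tested and 2 were higher: Igkc, the kappa light chain, by 3.97 ± 1.237 (edgeR adjusted p = 0.0311), and Ighg2c, an IgG heavy chain, by 2.83 ± 0.77 (edgeR adjusted p = 0.0184). Igkc ranged from 0.983 to 74.3 CPM within that group and from 0.294 to 4.10 CPM in controls, so the groups overlapped. Ighg2c overlapped too, with 0.567, 0.467, 1.49 and 5.51 CPM in sedentary pain and 0.126 to 0.477 CPM in controls. Ighm, the IgM heavy chain and the most abundant of them, had 32.3 ± 16.2 CPM in female controls and 51.9 ± 33.9 in sedentary pain (SD, n = 4) and did not pass (edgeR adjusted p = 0.295). Igha had 0, 0, 167 and 224 counts in sedentary pain replicates 1 to 4. It did not pass the filter, which asks for enough counts in as many samples as a group holds.

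Of 7 genes listed as ITAM adaptors, 5 were tested and 4 were higher. Among them was Tyrobp, which encodes DAP12, by 4.80 ± 0.75 (edgeR adjusted p = 0.0026). The list also held Hcst, whose product carries no ITAM. Of 14 further receptors that use such adaptors or Syk, 9 of 10 tested were higher, though some, such as Clec4e with 0, 0, 1 and 7 counts in female controls, entered the test only through the pain groups. Those higher included Trem2 by 4.80 ± 0.76, the beta-glucan receptor Clec7a by 3.87 ± 0.80 and Cd300lb by 3.87 ± 0.54. Of the Src and Tec family kinases, which act just before and after Syk, 8 of 10 were higher, with Btk at 4.28 ± 0.68 and Lyn at 2.78 ± 0.48. The list of these kinases also held Zap70, which belongs to the Syk family. B2m, the FcRn partner, was higher by 2.42 ± 0.64 (edgeR adjusted p = 0.0166).

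Downstream, 8 of 10 adaptors were higher, with Fyb at 5.12 ± 0.76, Lcp2, which encodes SLP-76, at 5.27 ± 0.81 and Sh3bp2 at 3.79 ± 0.53. Of the 22 effectors, 16 were higher, among them the phospholipase Plcg2 by 3.46 ± 0.59 and Card9 by 3.61 ± 0.51. The 2 lower genes of the list were Plcg1, at -0.43 ± 0.11, and Pik3r1, at -1.05 ± 0.32 (edgeR adjusted p = 0.0135 and 0.0288), named here because they went against the rest. In the list of inhibitory receptors and phosphatases, 14 of the 15 tested were higher. They included Ptpn6, which encodes SHP-1, by 5.16 ± 0.87 and Inpp5d by 3.55 ± 0.54. The CD45 gene Ptprc, on that list although CD45 is not only a brake, was higher by 4.53 ± 0.83. Of 12 other Fc receptor genes only 2 were counted well enough to test, and Trim21, a cytosolic antibody receptor, was higher by 1.59 ± 0.52 (edgeR adjusted p = 0.0353).

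**Figure D4:**
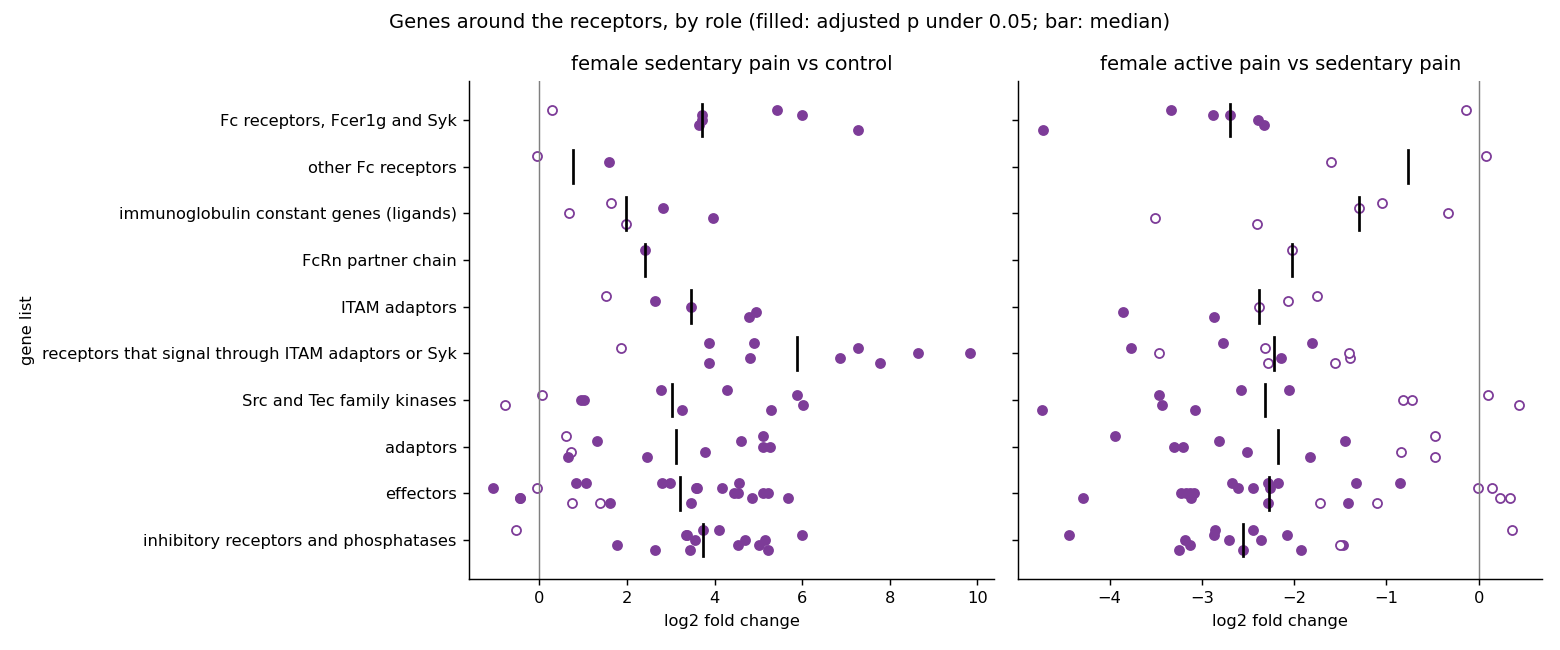
Log2 fold changes of the genes around the receptors in females, 1 point per gene, by role (rows), for sedentary pain against control (left) and active against sedentary pain (right); filled points have an edgeR adjusted p under 0.05 and bars are row medians. Most points lie right of 0 on the left (63 of 80 pathway genes higher) and left of 0 on the right (48 of 80 lower).

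In females with active against sedentary pain, 48 of the 80 pathway genes were lower and 0 higher, with a median log2 difference of -2.28, beside 9.41% lower and a median of 0.01 over all genes. In this comparison 0 of all genes passed without female active pain replicate 1, 2 or 4 or female sedentary pain replicate 4, and 3 without female sedentary pain replicate 3. The smallest p-values were those of Sh3bp2 at -2.51 ± 0.50, Bcl10, which works with Card9, at -0.85 ± 0.17 and Fyb at -3.30 ± 0.68 (edgeR adjusted p = 0.0328 for each). Inhibitory receptors and phosphatases were lower for 13 of 15, effectors for 16 of 22, adaptors for 7 of 10, Src and Tec family kinases for 6 of 10 and the further ITAM receptors for 4 of 10. The immunoglobulin genes were lower for 0 of 5. Against control, females with active pain had 0 of 80 called, with a median log2 difference of 1.09.

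In males, 0 of the 74 pathway genes tested passed in any of the 3 comparisons, with median log2 differences of 1.70 for sedentary pain against control, 1.39 for active pain against control and -0.29 for active against sedentary pain. Tyrobp had 2.79 ± 0.804 CPM in male controls and 23.8 ± 32.7 in sedentary pain (SD, n = 4), with the same high replicate 1 as the 7 genes. Between control males and control females, 2 of 82 pathway genes differed by edgeR, a share near the 2.83% of all genes tested. Over samples left out, 198 to 622 of all genes passed in that comparison. Ighg2c, a ligand of these receptors, was higher in males by 3.10 ± 0.63 on the log2 scale (edgeR adjusted p = 0.00678), with 2.42 ± 0.380 CPM against 0.280 ± 0.146 CPM (SD, n = 4), and no sample overlapped. Prkcd, a protein kinase C gene, was higher by 1.55 ± 0.41 (edgeR adjusted p = 0.0427), with 18.8 ± 1.33 against 6.39 ± 2.35 CPM (SD, n = 4).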

How the data were processed

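RNA of 24 left gastrocnemius samples was sequenced. Per the labels' protocols, the authors used 0.5 µg of total RNA per library (Illumina TruSeq, stranded) and read paired ends of 100 bases. The authors deposited raw read counts per Ensembl gene, whole numbers with no normalization. The submitters' processing notes name HISAT2 2.1.0, Salmon 0.9.1, featureCounts and DESeq2 1.24.0, and the builds mm10 and GRCm38.p6, with no role or order; the use of strand is not given in the sources used here. Symbols and positions come from GENCODE M21 (GRCm38), matched on the Ensembl identifier for 54409 of 54532 genes, and promoters of all 7 genes from RefSeq (GRCm38.p6), of which 9 start sites were read.

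Each sex was fitted on its 12 samples with edgeR 4.0.16 in R 4.3.3: TMM scaling, filterByExpr (minimum count 10), robust quasi-likelihood F tests, two-sided, and Benjamini-Hochberg adjustment over all genes tested at 0.05. Tests between the sexes used all 24 samples. CPM use TMM factors; SE is that which gives the test's p. Ratios used a pseudocount of 0.1 CPM. Likeness used a prior count of 2 and genes whose mean log2 CPM was 1 or more. Ratio tests used NumPy 2.4.6, and figures matplotlib 3.10.9. The fit was run on simulated data with the same spread for every gene and no shifts shared by genes within a sample. Those data were simpler than these, so that run does not show how the fit behaves here.

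Named were the 7 genes, 12 pathway genes written down by name, the 4 most abundant immunoglobulin genes, up to 3 pathway genes of smallest p per comparison and the 3 genes most like each of the 7; a few of these are not reported here. Trim21, Ptprc, Plcg1, Pik3r1, Clec4e and Fcer1a were added after their values were seen. The genes and lists were chosen with earlier results of these data known. Alternatives were RLE scaling, DESeq2 1.42.0, no filter, no robust step, other sample sets, a replicate block, a library-number term, 1 surrogate variable (sva 3.50.0), a GC and length correction, and each sample left out.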

Additional observations from a re-analysis of the deposited data

Results flagged for a closer look

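Of the 42 sets of 4 samples examined (7 genes in 6 groups), 5 held a sample whose gap to its nearest neighbour took more of the whole range of the set than Dixon's 95% limit for 4 samples allows. Chance alone gives about 1 in 20 for independent, normally distributed sets. These genes moved together across samples, so that rate cannot be set against the count of 5. In male sedentary pain, replicate 1 was that sample for Fcgr1 (39.6 CPM, gap 0.874 of the range), Fcgr2b (30.7 CPM, 0.856), Fcer1g (120.0 CPM, 0.914) and Syk (23.6 CPM, 0.84). In female active pain, replicate 3 was that sample for Fcgr1 (23.2 CPM), barely past the limit. Macrophage, monocyte and neutrophil markers were also highest in male sedentary pain replicate 1 within its group, and female active pain replicate 3 had the highest monocyte and neutrophil sums of its group (78.5 and 111.6 CPM). Mast cell markers were highest in these samples too, at 62.1 CPM in the male and 63.4 CPM in the female one. T cell and NK cell markers of male sedentary pain were highest in replicate 4 instead. Their part in these values was not tested.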

How the results depend on the processing

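Over the 7 genes and 10 comparisons, 2079 values were recomputed under the alternatives, and 1927 kept their direction and their side of the threshold. The direction of Fcgr1, Fcgr2b, Fcgr3, Fcgr4, Fcer1g and Syk held under every alternative in female sedentary pain against control, female active against sedentary pain, and male pain groups against control. The cause of the changes below was not tested. The number of the 7 genes called in female sedentary pain against control became 1 with 1 surrogate variable. DESeq2 called 1 in female active pain against control, 5 in male sedentary pain against control and 2 in male active pain against control, and 133, 280 and 123 of all genes. In female active against sedentary pain the count became 0 with no filter, with 1 surrogate variable, with only the compared groups and with replicates 1 and 2 alone, and ranged from 0 to 6 over samples left out. The tests between the sexes called 4 (sedentary pain against control) and 4 (active against sedentary pain) with replicates 3 and 4 alone (1349 and 1222 of all genes), 3 for the first without the 2 high male samples together (chosen after seeing the data), and 0 to 6 for the second over samples left out.

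Signs turned mostly where a value was near 0. Fcgrt became -0.539 with 1 surrogate variable, -0.157 with the GC and length correction and -0.147 with that correction and the replicate block in female sedentary pain against control. It became -0.190 in female active pain against control with replicates 3 and 4 alone. In female active against sedentary pain it became 0.573, 0.159, 0.166 and 0.127 with 1 surrogate variable, the correction, the correction and block, and replicates 1 and 2. In males, sedentary pain against control, it became -0.074 with 1 surrogate variable. In male active against sedentary pain Fcgr2b became 0.145 with 1 surrogate variable and 0.368 with replicates 3 and 4, and without the 2 high male samples Fcgr2b, Fcer1g and Syk became 0.391, 0.208 and 0.135. The sex difference of sedentary pain against control for Fcgrt became 0.002 with no filter, 0.069 with 1 surrogate variable, 0.143 and 0.132 with the correction without and with the block, and 0.140 with replicates 1 and 2. The sex difference of active pain against control became -0.041 for Syk with 1 surrogate variable. It became -1.387, -0.073, -1.040 and -0.484 for Fcgr1, Fcgr3, Fcer1g and Syk with replicates 3 and 4, and -0.630, -0.027, -0.145, -0.325 and -0.282 for Fcgr1, Fcgr2b, Fcgr3, Fcer1g and Syk without the 2 high male samples. Between controls, Fcgr2b became 0.135 with 1 surrogate variable, Fcgr2b and Fcgr3 became 0.330 and 0.116 with replicates 1 and 2, and Syk became -0.006 with replicates 3 and 4. The log2 ratio of Fcgr4 to Fcgr2b in male active pain against control became -0.067 with a pseudocount of 1 CPM.

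Over samples left out, Fcgrt ranged from -0.012 to 0.375 in female active pain against control, from -0.317 to 0.054 in female active against sedentary pain and from -0.306 to 0.212 for the sex difference of sedentary pain against control. In male active against sedentary pain the ranges were -1.916 to 0.846 for Fcgr1, -0.526 to 0.705 for Fcgr2b, -0.785 to 0.268 for Fcgr3, -1.460 to 0.156 for Fcgr4, -1.618 to 0.919 for Fcer1g and -0.810 to 0.519 for Syk. For the sex difference of active pain against control they were -0.636 to 1.651 for Fcgr1, -0.037 to 0.660 for Fcgr2b, -0.158 to 0.381 for Fcgr3, -0.334 to 1.016 for Fcer1g and -0.288 to 0.409 for Syk. Between controls they were -0.376 to 0.073 for Fcgr2b, -0.445 to 0.061 for Fcgr3 and -0.003 to 0.366 for Syk. The log2 ratio of Fcgr3 to Fcgr2b ranged from -0.063 to 0.111 in female active pain and from -0.065 to 0.198 in male sedentary pain, each against control. In male active against sedentary pain that of Syk to Fcer1g ranged from -0.297 to 0.274 and that of Fcgrt to B2m from -0.055 to 0.267.

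Whether replicate numbers pair the samples is not settled. Between same-numbered samples, deviations from the group means correlated above 0.1 in 2, 3 and 1 of 4 pairs in the female comparisons and in 0, 1 and 3 in the male ones. The mean correlation was 0.236 in female active pain against control, beside -0.078 for other pairs. In male sedentary pain against control it was -0.175, beside 0.066. With the replicate block the number of the 7 genes called was the same in every comparison, and 3739 and 1629 of all genes passed in female sedentary pain against control and female active against sedentary pain, beside 4867 and 1730 without it. In the first, 61 passed with 1 surrogate variable, 2847 with only the compared groups and 238 with replicates 1 and 2 alone, and 2486 without female sedentary pain replicate 4. In the second, 3154 passed with DESeq2, 174 with no filter, 2745 with a library-number term, 2921 with the correction and block, and 0 to 4316 over samples left out. Of the genes called in the first, 58.5% were higher, 43.9% with the GC and length correction, under which the median of all genes was -0.14 in place of -0.02, and 72% with replicates 3 and 4 alone; in the second, 21% were higher, 33.6% with the correction and 51.7% with the block too. Few counts limit Fcgr4, whose control level rests on 0 to 39 counts.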
